A study of Mus musculus with 6 samples.

Results

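The SLAM family receptors examined here are the genes Slamf1, Slamf6, Cd48, Cd84, Ly9 and Cd244, together with Sh2d1a, which encodes their adaptor SAP. They were taken by gene name from the deposited expression table and make up 7 of the 35275 genes listed there. Of the 7, 6 had a mean of at least 1 FPKM (fragments per kilobase of gene length, scaled to library size) and were among the 11252 genes at that level that entered the test across genes, while Sh2d1a lay below it. The libraries are bulk RNA-seq of splenic B cells from C57BL/6 mice of 6 to 8 weeks, of the genotype CD40LΔ5 (3 libraries) or wild type (WT, 3 libraries). All the mice, CD40LΔ5 and WT alike, had been immunised with sheep erythrocytes (SRBC), which call forth a response that depends on T cells, and spleens were taken on day 8. The labels do not describe the allele beyond its name, do not say whether a library came from 1 animal, and give B cell isolation with a pan B cell kit for all samples.

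SLAM family receptors are immunoglobulin-like surface proteins of lymphocytes and other blood cells, encoded by a cluster of neighbouring genes. Most bind a copy of themselves on the adjoining cell, so that a T cell and a B cell that both carry the receptor hold on to each other, whereas CD244 binds CD48. Tyrosine motifs in their tails recruit SAP, which brings in the kinase Fyn, and in the absence of SAP the same motifs can recruit inhibitory phosphatases. In mice, SAP in T cells is needed for germinal centres, and Slamf6 and Cd84 take part in the lasting contacts between T and B cells there.

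The libraries did not fall into the same groups in every deposited source. By the sample labels, the groups are the 3 libraries of each genotype. The authors' deposited table of means has a column MUT, which equals the mean of CD40LΔ5 replicate 2 and WT replicates 1 and 2 to within 3.33e-08 FPKM, and a column WT, which equals the mean of CD40LΔ5 replicates 1 and 3 and WT replicate 3. Both groupings are used below: the libraries behind these columns are called the MUT-column set and the WT-column set, and a single library is always called by its label. Reads on genes numbered between 24320080 and 27866611 per library. The B cell receptor component Cd79a lay between 1510 and 1999 FPKM in the 6 libraries, the T cell receptor gene Trbc2 between 11.9 and 15.9 FPKM and the natural killer granule protease Gzma between 6.41 and 22.6 FPKM. CD40LΔ5 replicate 2 and WT replicate 1 stood apart, as the 2 lowest libraries for each of the 12 germinal centre markers examined. CD40LΔ5 replicate 3 and WT replicate 3 stood apart in the summed neutrophil markers, at 627 and 363 FPKM, against 59.4 to 119 FPKM in the other libraries. Since p-values rest on the spread between libraries of unknown origin, that spread may be technical in part.

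Of the receptors, 5 were plainly expressed and 1 was near the limit of the test, and the order of the levels was the same in every library. Cd48 encodes a GPI-anchored receptor without a cytoplasmic tail, the ligand of CD244 and, in mice, of CD2. It had the highest level of the family, at 87.4, 99.5 and 87.9 FPKM in CD40LΔ5 replicates 1, 2 and 3 and at 88.5, 88.2 and 82.3 FPKM in WT replicates 1, 2 and 3. The ranges of the genotypes overlapped, with the highest value in CD40LΔ5 replicate 2. This level placed Cd48 at rank 752 among the tested genes.

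Ly9 encodes CD229, a self-binding receptor with a long tail that in mice restrains marginal zone and innate-like B cells. Its level was 78.6, 75.7 and 70.9 FPKM in CD40LΔ5 replicates 1, 2 and 3, against 84.2, 68.4 and 72.7 FPKM in WT replicates 1, 2 and 3. The WT libraries held both the highest and the lowest value. The ranges of Ly9 and Cd48 over the 6 libraries overlapped, but within each library Ly9 was lower, at 0.761 to 0.951 times the level of Cd48.

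Slamf6 encodes Ly108, a self-binding receptor of T, B and natural killer cells. It measured 43.3, 42.7 and 37.7 FPKM in CD40LΔ5 replicates 1, 2 and 3 and 37.9, 40.8 and 38.3 FPKM in WT replicates 1, 2 and 3, and was the steadiest member. Its highest library exceeded its lowest 1.15-fold, and its coefficient of variation (SD over mean) of 6.26% was below that of most tested genes, whose median was 11.4%.

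Cd84 encodes a self-binding receptor also found on platelets and macrophages. It stood at 33.3, 34.6 and 28.0 FPKM in CD40LΔ5 replicates 1, 2 and 3, against 32.9, 31.9 and 25.3 FPKM in WT replicates 1, 2 and 3. Replicate 3 was the lowest of each genotype, and these are the libraries with the high neutrophil sums, whose part in the Cd84 values was not tested. Slamf1 encodes CD150, a self-binding receptor induced on activated lymphocytes. Slamf1 measured 20.8, 15.4 and 16.004 FPKM in CD40LΔ5 replicates 1, 2 and 3 and 14.3, 16.8 and 19.0 FPKM in WT replicates 1, 2 and 3. The ranges of Slamf6, Cd84 and Slamf1 did not overlap each other, nor those of their neighbours in the order of levels.

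Cd244 encodes 2B4, the CD48 receptor of natural killer cells, some T cells and myeloid cells. Its level was far below that of its ligand, at 0.998, 1.46 and 1.22 FPKM in CD40LΔ5 replicates 1, 2 and 3 and 1.70, 1.04 and 0.829 FPKM in WT replicates 1, 2 and 3, on 86 to 163 reads per library. Sh2d1a, the SAP gene used mainly in T and natural killer cells, was lower still. It measured 0.335, 0.367 and 0.235 FPKM in CD40LΔ5 replicates 1, 2 and 3 and 0.2995, 0.2995 and 0.370 FPKM in WT replicates 1, 2 and 3. These rest on 18 to 28 reads per library, so that counting error alone gives a coefficient of variation of about 20.9%, against 15.96% observed. Differences in Sh2d1a within this counting error were not detectable at this depth. For Cd48, Ly9, Slamf6 and Cd84, counting error was 1.43% to 1.97% and the spread between libraries 6.26% to 11.6%. Counting error was 2.88% for Slamf1, against a spread of 14.3%, and 9.19% for Cd244, against 26.7%.

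**Figure D1:**
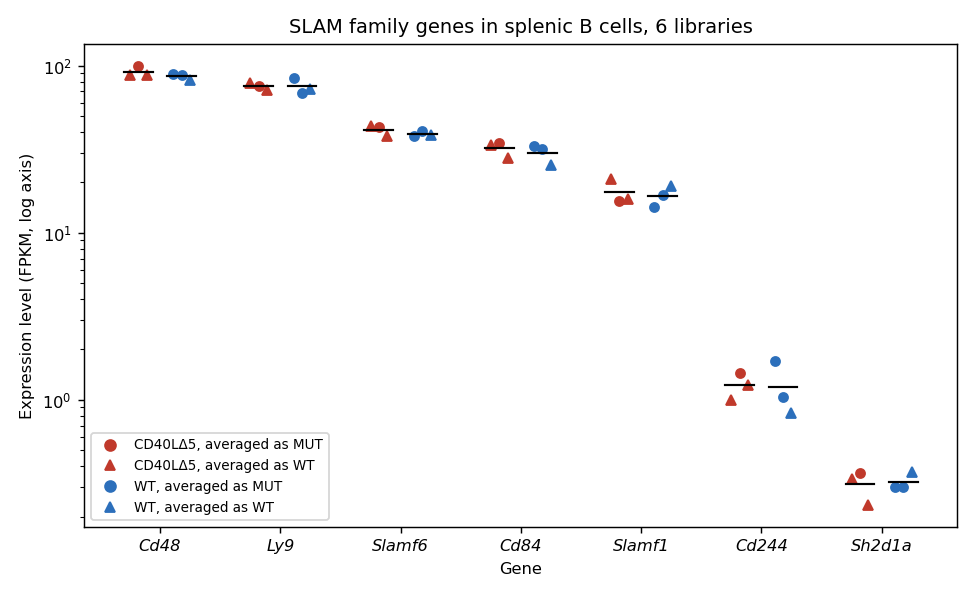
Level of each gene in FPKM on a log axis, 1 point per library, with CD40LΔ5 libraries left of WT libraries and the mean of each genotype as a bar. Circles and triangles mark the sets of the deposited table of means. The genotypes overlap for every gene, and the levels run from Cd48 at 82.3 to 99.5 FPKM to Sh2d1a at 0.235 to 0.370 FPKM.

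The 6 receptor genes lie within 385 kb of chromosome 1, from 171559193 to 171943868 (coordinates as in the files, those of GRCm38), and Sh2d1a lies on chromosome X, from 42502453 to 42529330. The span holds 9 listed genes in the order Cd244, Ly9, Slamf7, Cd48, the pseudogene Tma7-ps, Slamf1, Cd84, Gm10521 and Slamf6. Ly9 and Slamf7 are on the minus strand and the others on the plus strand. The level did not follow position: Cd244, with a mean of 1.21 FPKM, is next to Ly9 with 75.1 FPKM. Tma7-ps averaged 4.40 FPKM, on 16 to 33 reads per library, and Gm10521 averaged 3.97 FPKM. None of the 6 receptor genes overlaps another listed gene. Sh2d1a overlaps Tenm1, a gene on the opposite strand with at most 0.00844 FPKM in a library, and the libraries do not mark the strand.

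**Figure D2:**
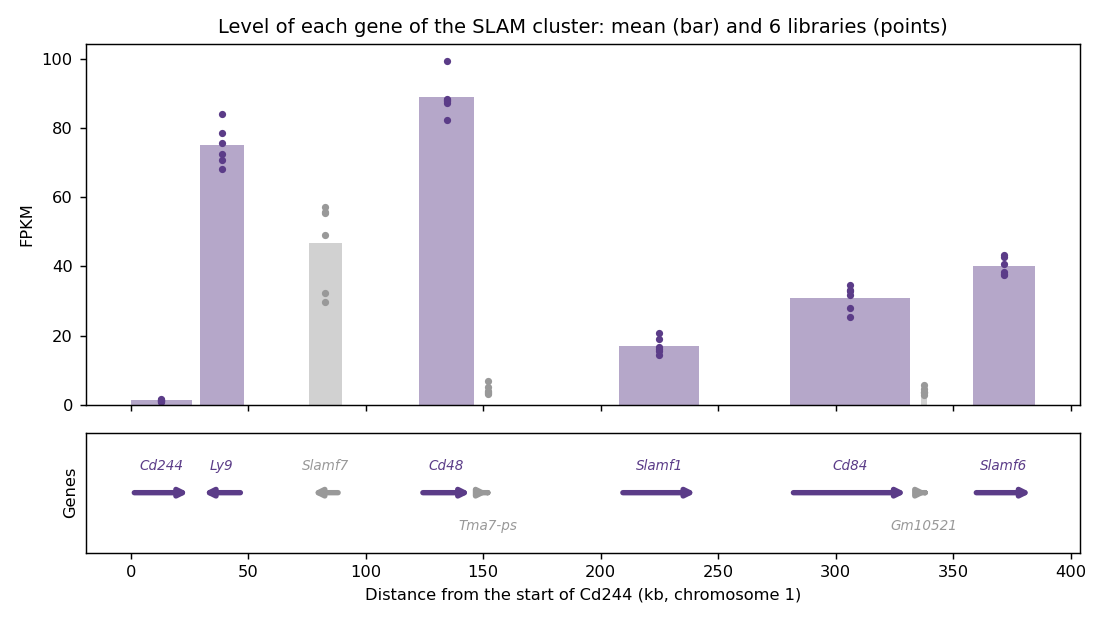
Mean level (bar, drawn over the gene's extent) and the 6 libraries (points) in FPKM for the 9 genes of the SLAM cluster, against the distance from the start of Cd244 in kb. Arrows show the strand and purple marks the 6 receptor genes chosen here. Ly9 and Cd48 stand highest, Cd244 near 0.

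The start regions of Cd48, the highest member, and of Slamf1, which ordered the libraries as the summed germinal centre markers did, are shown to let their sequences be compared. Each is the RefSeq window of GRCm38.p6 from 250 bases before to 50 bases after the annotated start, on the plus strand, at chr1:171681742-171682041 for Cd48 and chr1:171766882-171767181 for Slamf1. Capitals mark matches on either strand to 3 motifs searched: CCGGAA (a core bound by ETS factors), GAGGAAGT (an ETS site of the PU.1 type) and CAGCTG (an E-box, the same on both strands). None of the 3 contains another.
Cd48: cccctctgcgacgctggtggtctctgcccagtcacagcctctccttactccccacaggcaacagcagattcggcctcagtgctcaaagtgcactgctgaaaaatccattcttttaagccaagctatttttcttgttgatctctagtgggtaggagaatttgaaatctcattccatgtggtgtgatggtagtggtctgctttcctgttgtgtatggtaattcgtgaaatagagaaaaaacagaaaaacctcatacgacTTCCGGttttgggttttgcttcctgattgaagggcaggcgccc
Slamf1: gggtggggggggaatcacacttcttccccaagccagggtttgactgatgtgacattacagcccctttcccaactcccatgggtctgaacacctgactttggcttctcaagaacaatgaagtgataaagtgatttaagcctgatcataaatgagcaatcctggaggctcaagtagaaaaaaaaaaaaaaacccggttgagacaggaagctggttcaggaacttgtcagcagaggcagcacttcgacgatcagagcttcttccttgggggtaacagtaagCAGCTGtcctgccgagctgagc
The Cd48 window holds CCGGAA on the reverse strand, 8 bases after the start, and the Slamf1 window holds CAGCTG 29 bases after the start. Of 32817 windows of the same kind, 14.9% hold CCGGAA, 16.3% CAGCTG and 3.20% GAGGAAGT. The table has windows for 5 of the 7 genes, and those of Cd244, Cd84 and Slamf6 hold none of the 3.

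By the labels, the comparison of CD40LΔ5 with WT asks whether the altered CD40 ligand changed these receptors on B cells during the SRBC response, and no member passed the test. limma on log2(FPKM + 1), adjusted over all 11252 genes, called 0 genes at an adjusted p of 0.05 (0% of those tested), and the adjusted p was 1 for each of the 6 tested members. Unadjusted, 139 genes had a p under 0.05, which is 1.24% of those tested and 0 of the 6 members, and limma voom on reads recovered from the FPKM values called 0 genes too. The genotypes overlapped for each of the 7 members, while 4.29% of tested genes had groups that did not overlap. Slamf1 averaged 17.4 ± 2.98 FPKM in CD40LΔ5 and 16.7 ± 2.38 FPKM in WT (SD, n = 3 each), Cd84 32.0 ± 3.48 FPKM in CD40LΔ5 and 30.0 ± 4.15 FPKM in WT, and Cd244 1.23 ± 0.229 FPKM in CD40LΔ5 and 1.19 ± 0.453 FPKM in WT.

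The intervals of these differences show what size of change could have been missed, and they hold only for the grouping by the labels. The log2 difference was 0.082 for Cd48 (95% interval -0.13 to 0.29), 0.076 for Slamf6 (-0.13 to 0.28) and 0.092 for Cd84 (-0.22 to 0.41). The difference of Cd48 was 0.022 without CD40LΔ5 replicate 2, and that of Slamf6 was 0.040 without CD40LΔ5 replicate 1 and 0.14 without CD40LΔ5 replicate 3. For Slamf1 it was 0.055 (-0.30 to 0.41) and for Cd244 0.039 (-0.42 to 0.50). For Ly9 it was 0.0044 (-0.24 to 0.25), a direction that turned with scaling by median of ratios, with voom and without immunoglobulin genes. On this scale the Cd48 interval runs from 0.914-fold to 1.23-fold and that of Cd244 from 0.748-fold to 1.41-fold, which understates the fold of a gene as low as Cd244. Sh2d1a averaged 0.312 ± 0.0686 FPKM in CD40LΔ5 and 0.323 ± 0.0405 FPKM in WT (SD, n = 3 each), a difference of -0.011 FPKM with an exact two-sided permutation p of 0.9. With 3 libraries against 3 such a test cannot give a p below 0.1. Over all tested genes the median size of the log2 difference was 0.068, and 55.5% of genes lay above 0.

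**Figure D3:**
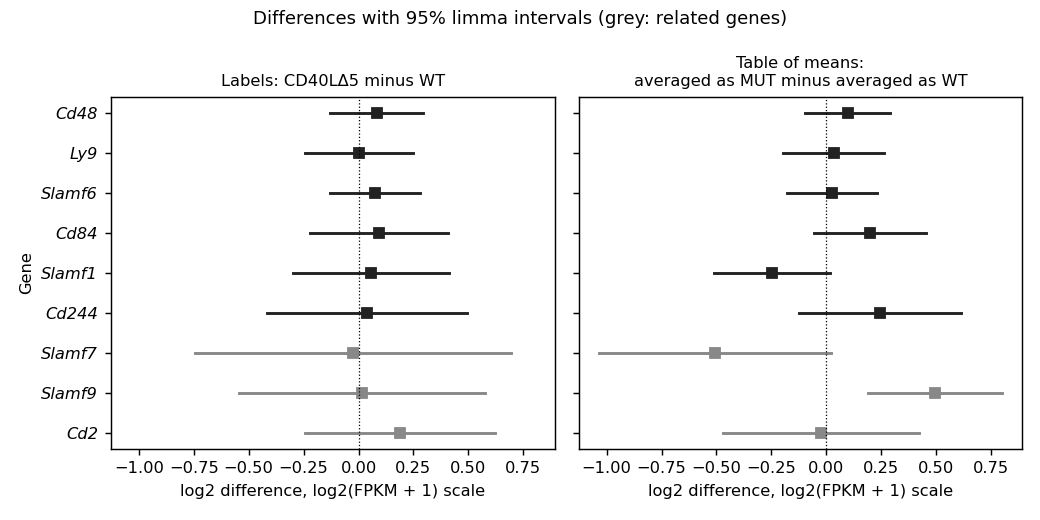
Difference of each gene on the log2(FPKM + 1) scale (square) with its 95% limma interval (line), by the labels on the left (CD40LΔ5 minus WT) and by the deposited table of means on the right (MUT-column set, marked as averaged as MUT, minus WT-column set). Members are in black, related genes in grey. Every interval of a member includes 0, and among the related genes only that of Slamf9 on the right does not.

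In the sets of the table of means, which regroup the same 6 libraries, again no member passed, and the wider differences belonged to Slamf1, Cd84 and Cd244. limma called 3 of the 11252 genes in these sets (0.0267%), namely Ighd5-3, Rgs18 and Map3k19, named here after their values were seen, and 0 members. Unadjusted, 1463 genes (13.0%) and no member had a p under 0.05. Slamf1 had 15.4, 14.3 and 16.8 FPKM in the MUT-column set, CD40LΔ5 replicate 2 and WT replicates 1 and 2. It had 20.8, 16.004 and 19.0 FPKM in the WT-column set, CD40LΔ5 replicates 1 and 3 and WT replicate 3. The sets overlapped through WT replicate 2 and CD40LΔ5 replicate 3. The log2 difference of Slamf1 was -0.25 ± 0.11 SE (95% interval -0.51 to 0.018; limma adjusted p = 0.400). It was -0.14 with CD40LΔ5 replicate 2 and WT replicate 1 both left out, a setting added after the data were seen, in which 1 MUT-column library remains and is assumed to vary like the others.

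Cd84 averaged 33.1 ± 1.38 FPKM in the MUT-column set and 28.9 ± 4.10 FPKM in the WT-column set (SD, n = 3 each), with a log2 difference of 0.20 ± 0.11 SE (limma adjusted p = 0.448). The difference was 0.30 without CD40LΔ5 replicate 1, the highest library of the WT-column set, and 0.11 without WT replicate 3, the lowest. Cd244 averaged 1.40 ± 0.333 FPKM in the MUT-column set and 1.02 ± 0.197 FPKM in the WT-column set (log2 difference 0.24 ± 0.16 SE; limma adjusted p = 0.502). Without WT replicate 1 the difference of Cd244 was 0.16, and with CD40LΔ5 replicate 2 left out as well it was 0.021. The sets did not overlap for Cd48 alone among the 7 members, at 88.2 to 99.5 FPKM in the MUT-column set and 82.3 to 87.9 FPKM in the WT-column set. Such separation was seen for 16.9% of tested genes, with the MUT-column set higher for 12.1%, and the log2 difference of Cd48 was 0.097 ± 0.081 SE (limma adjusted p = 0.591). The difference of Cd48 was 0.041 without CD40LΔ5 replicate 2. The nearest Cd48 values of the sets were 88.2 FPKM in WT replicate 2 and 87.9 FPKM in CD40LΔ5 replicate 3. They differed by less than the counting error of Cd48, 1.91%. For Slamf6 and Ly9 the differences were 0.025 (95% interval -0.18 to 0.23) and 0.034 (-0.20 to 0.26), and both turned below 0 under median-of-ratios scaling, voom and removal of immunoglobulin genes. Sh2d1a averaged 0.322 ± 0.0387 FPKM in the MUT-column set and 0.313 ± 0.0698 FPKM in the WT-column set (exact two-sided permutation p = 1). Over all tested genes the median log2 difference was 0.049, and 62.0% of genes lay above 0.

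The summed level of the 6 receptors moved little, from 238 to 269 FPKM across the libraries. Cd48 made up 33.1% to 36.9% of this sum, Ly9 27.7% to 32.4% and Slamf6 14.6% to 16.5%. The share of Slamf1 was 5.71% to 7.87% in CD40LΔ5 and 5.49% to 7.97% in WT. The highest share of Slamf1 was 1.45 times the lowest, against 1.88 times for Cd244 and at most 1.22 times for each of the other receptors. Relative to Cd84, Slamf1 stood at 0.433 to 0.526 in the MUT-column set and at 0.571 to 0.752 in the WT-column set, so that this ratio did not overlap between the sets. By the labels the ratio was 0.445 to 0.625 in CD40LΔ5 and 0.433 to 0.752 in WT. The ratio was chosen after the values were seen and was not tested. Single genes did not overlap between the MUT-column and WT-column sets for 16.9% of tested genes, and the share among other ratios was not counted.

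The level of Slamf1 placed the 6 libraries in the same order as the summed level of the germinal centre markers, a list to which it does not belong. That sum was 243, 80.7 and 141 FPKM in CD40LΔ5 replicates 1, 2 and 3 and 63.7, 177 and 229 FPKM in WT replicates 1, 2 and 3. Both measures were highest in CD40LΔ5 replicate 1, then WT replicate 3, WT replicate 2, CD40LΔ5 replicate 3 and CD40LΔ5 replicate 2, and lowest in WT replicate 1. Of the 12 listed genes 3 had this same order, the confinement receptor S1pr2 and the G-protein regulator Rgs13 among them. The others did not, among them Bcl6, the most abundant gene of the list, and Mki67. S1pr2 was named after its values were seen. The sum varied 3.81-fold and Slamf1 1.46-fold. Slamf1 measured 15.4, 16.004 and 16.8 FPKM in CD40LΔ5 replicates 2 and 3 and WT replicate 2. With a counting error of 2.88%, the order of these libraries by Slamf1 is uncertain. By the table of means all 12 listed genes were lower in the MUT-column set (median log2 difference -1.11), 7 had an unadjusted p under 0.05 and 0 were called. Over all tested genes 62.0% were higher in the MUT-column set, and 13.0% had an unadjusted p under 0.05. By the labels 10 of the 12 listed genes were higher and 2 lower in CD40LΔ5 (median 0.095, 0 called), against 55.5% of tested genes higher. The same order was seen for 54 of the 11252 tested genes (0.480%). Among 91 pairs of a member and a marker list, the order was equal for 2, and the other was Ly9 with the follicular helper list, whose sum consists almost entirely of Cxcr5, a gene that B cells express themselves. In bulk libraries more cells of a type and more RNA per cell cannot be told apart, and the part of germinal centre cells in the Slamf1 values was not tested.

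**Figure D4:**
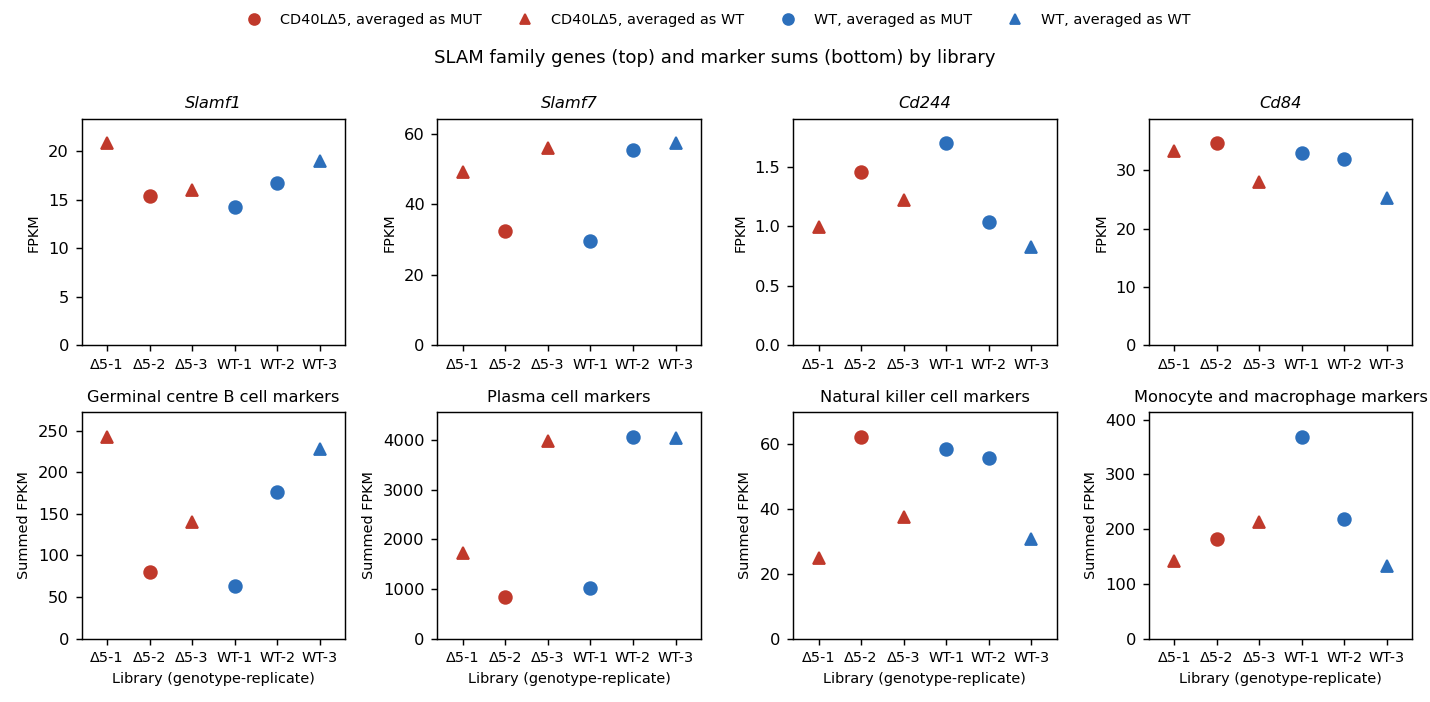
Top row, level in FPKM of Slamf1, Slamf7, Cd244 and Cd84 in each library. Bottom row, summed FPKM of 4 marker lists in the same libraries, with colours for genotype and shapes for the sets of the table of means. Slamf1 orders the libraries as the germinal centre sum does. Slamf7 is lowest in CD40LΔ5 replicate 2 and WT replicate 1, where the plasma cell and germinal centre sums are lowest too.

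Genes with the profile nearest to a member were found by the root mean square difference of centred log2(FPKM + 1) over the 6 libraries, for the 3 members that varied most. For Slamf1 these were Nup93, a nuclear pore protein (0.036), the phosphatase subunit Ppp4r2 (0.043) and the condensin subunit Smc4 (0.047). For Cd244 they were Tcn2, which carries vitamin B12 (0.027), the acid phosphatase Acp5 (0.038) and the lipid droplet protein Plin2 (0.040), and for Cd84 they were Ankrd32 (0.032), Smim24 (0.041) and Man2a2 (0.041). With 11251 genes compared over 6 libraries some close profiles are bound to occur, so these are given as a description.

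Cd244 was examined beside the markers of the cells known to carry it. The summed natural killer list stood at 24.8, 62.1 and 37.5 FPKM in CD40LΔ5 replicates 1, 2 and 3 and at 58.4, 55.5 and 30.7 FPKM in WT replicates 1, 2 and 3. The monocyte and macrophage sum was 143, 181 and 212 FPKM in CD40LΔ5 replicates 1, 2 and 3 and 369, 219 and 133 FPKM in WT replicates 1, 2 and 3. CD40LΔ5 replicate 2 and WT replicate 1 were the highest for Cd244 and for the natural killer sum, and WT replicate 3 was the lowest for Cd244 and for the macrophage sum. The natural killer sum was lowest in CD40LΔ5 replicate 1 instead. For the macrophage sum, CD40LΔ5 replicate 2 lay below WT replicate 2 and CD40LΔ5 replicate 3. Neither sum placed the libraries in the order of Cd244. Of the natural killer list 9 of 11 genes were tested, and by the table of means all 9 were higher in the MUT-column set, with a median log2 difference of 0.57 and 0 called. By the labels 2 were higher and 7 lower in CD40LΔ5 (median -0.076). All 12 tested macrophage genes were higher in the MUT-column set (median 0.57, 0 called), and all 12 were lower in CD40LΔ5 by the labels (median -0.28, 0 called). Over all tested genes 62.0% were higher in the MUT-column set, and 55.5% were higher in CD40LΔ5 by the labels. No gene of either list was at 0 in all libraries. The part of these cells in the Cd244 values was not tested.

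Sh2d1a was set beside T cell genes, since SAP acts mainly in T cells. Cd3e, a chain of the T cell receptor complex, stood at 3.43, 3.53 and 3.22 FPKM in CD40LΔ5 replicates 1, 2 and 3 and at 3.65, 4.21 and 3.03 FPKM in WT replicates 1, 2 and 3. Of the follicular helper list, Icos, a costimulatory receptor of T cells, lay between 0.255 and 0.423 FPKM, a range that overlaps that of Sh2d1a. The summed T cell list ranged from 241 to 254 FPKM in CD40LΔ5 and from 207 to 276 FPKM in WT, mostly through Cd2 and Lck, which B cells express too. WT replicate 3 was the highest library for Sh2d1a, at 0.370 FPKM, and the lowest for Cd3e and for the T cell sum. Its Sh2d1a value rests on 28 reads, against 25 in each of CD40LΔ5 replicates 1 and 2, a difference within counting error. Not every gene of the T cell list was lowest in WT replicate 3. Neither the T cell sum nor the follicular helper sum placed the libraries in the order of Sh2d1a. Cd3e and Icos were chosen after their values were seen. The part of T cells in the Sh2d1a values was not tested.

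Among the related receptors outside the chosen set, Slamf7 and Slamf9 varied more than most members, and neither passed the test. Slamf7 encodes CRACC, a self-binding receptor that is abundant on plasma cells. It measured 49.2, 32.4 and 55.9 FPKM in CD40LΔ5 replicates 1, 2 and 3 and 29.6, 55.5 and 57.2 FPKM in WT replicates 1, 2 and 3. CD40LΔ5 replicate 2 and WT replicate 1 were thus the lowest of their genotypes, and the plasma cell sum was lowest in them too, at 832 and 1019 FPKM, against 1721 to 4066 FPKM in the other libraries. That sum is mostly the joining chain gene Igj and includes Slamf7. The germinal centre sum was lowest in the same libraries as well, at 80.7 FPKM in CD40LΔ5 replicate 2 and 63.7 FPKM in WT replicate 1. In the sets of the table the log2 difference of Slamf7 was -0.51 ± 0.22 SE (limma adjusted p = 0.393), and by the labels it was -0.027 ± 0.30 SE (limma adjusted p = 1), a direction that turned when CD40LΔ5 replicate 2, WT replicate 2 or WT replicate 3 was left out. Without WT replicate 2 the difference by the table was -0.78 (limma adjusted p = 0.0641). It was 0.039 without both CD40LΔ5 replicate 2 and WT replicate 1. These are the 2 lowest libraries for Slamf7, and 1 MUT-column library remains without them. The part of plasma cells in the Slamf7 values was not tested.

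Slamf9, a receptor of macrophages and dendritic cells in mice, had 4.57, 4.47 and 4.54 FPKM in the MUT-column set, against 3.22, 3.36 and 2.26 FPKM in the WT-column set. The sets did not overlap, and the log2 difference was 0.50 ± 0.13 SE (95% interval 0.19 to 0.80), with an unadjusted p of 0.00623 that did not pass over all genes (limma adjusted p = 0.343). It was 0.50 as well with CD40LΔ5 replicate 2 and WT replicate 1 left out. Sets that did not overlap were seen for 16.9% of tested genes, with the MUT-column set higher for 12.1%. An unadjusted p under 0.05 by limma was seen for 13.0%. By the labels Slamf9 averaged 3.72 ± 0.740 FPKM in CD40LΔ5 and 3.76 ± 1.30 FPKM in WT (SD, n = 3 each), with a log2 difference of 0.017. Slamf8, a receptor of myeloid cells, was low, at 0.307, 0.375 and 0.229 FPKM in CD40LΔ5 replicates 1, 2 and 3 and at 0.710, 0.403 and 0.391 FPKM in WT replicates 1, 2 and 3, on 13 to 37 reads per library. The genotypes did not overlap for Slamf8, and the exact two-sided permutation p of 0.1 is the smallest possible here. Among the tested genes, to which Slamf8 does not belong, 4.29% had genotypes that did not overlap. The difference of Slamf8 in mean FPKM was -0.20, and -0.094 without WT replicate 1. By the table of means Slamf8 averaged 0.496 ± 0.186 FPKM in the MUT-column set and 0.309 ± 0.0811 FPKM in the WT-column set (SD, n = 3 each), with overlapping sets and an exact two-sided permutation p of 0.2. The macrophage sum, given above, was highest in WT replicate 1, as Slamf8 was, whereas Slamf9 was highest in CD40LΔ5 replicate 2. The part of macrophages in the Slamf8 and Slamf9 values was not tested.

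The adaptor gene Sh2d1b2, a relative of SAP expressed in natural killer and myeloid cells, averaged 0.884 ± 0.158 FPKM in CD40LΔ5 and 0.929 ± 0.474 FPKM in WT (SD, n = 3 each; exact permutation p = 1). It averaged 1.07 ± 0.275 FPKM in the MUT-column set and 0.746 ± 0.316 FPKM in the WT-column set (exact permutation p = 0.3, n = 3 each). Cd2, which encodes the other CD48 receptor in mice, measured 158, 146 and 169 FPKM in CD40LΔ5 replicates 1, 2 and 3 and 183, 117 and 123 FPKM in WT replicates 1, 2 and 3. The genotypes overlapped, and the log2 difference of Cd2 was 0.19 ± 0.18 SE (limma adjusted p = 1). The difference of Cd2 was 0.39 without WT replicate 1 and 0.068 without WT replicate 2, in neither case with a call. By the table of means the difference of Cd2 was -0.024 ± 0.19 SE (limma adjusted p = 0.965), and it turned above 0 without CD40LΔ5 replicate 1, CD40LΔ5 replicate 3 or WT replicate 2. All 6 libraries thus held far more Cd2 than Cd244, at 117 to 183 FPKM against 0.829 to 1.70 FPKM.

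The signal transducers named for SLAM receptors were all expressed, and none was called in either comparison. All 25 genes of the list were tested. By the labels 18 were higher and 7 lower in CD40LΔ5 (median log2 difference 0.028, against 0.014 over all tested genes), and 0 had an unadjusted p under 0.05. The smallest p belonged to Ptpn11, the phosphatase SHP-2, at 16.5 ± 0.333 FPKM in CD40LΔ5 and 15.1 ± 1.51 FPKM in WT (SD, n = 3 each). Next came the adaptor Dok2 at 3.10 ± 0.357 FPKM in CD40LΔ5 and 3.63 ± 0.700 FPKM in WT, and the adaptor Sh3bp2 at 41.3 ± 5.98 FPKM in CD40LΔ5 and 37.6 ± 2.60 FPKM in WT. By the table of means 15 were higher and 10 lower in the MUT-column set, and 3 had an unadjusted p under 0.05, a share close to the 13.0% of all genes. Among these were the phospholipase Plcg1, at 8.49 ± 1.03 FPKM in the MUT-column set and 6.54 ± 0.468 FPKM in the WT-column set, and its B cell relative Plcg2, at 110 ± 9.65 FPKM in the MUT-column set and 132 ± 6.70 FPKM in the WT-column set. Their limma adjusted p was 0.352 for Plcg1 and 0.356 for Plcg2. Ptpn6, the phosphatase SHP-1, averaged 372 ± 26.3 FPKM in the MUT-column set and 335 ± 18.9 FPKM in the WT-column set, above every receptor of the family.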

How the data were processed

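The authors deposited FPKM per gene for 6 libraries, with gene lengths, and FPKM means in the columns MUT and WT. Per the labels' protocols, the library kit, TruSeq RNA, was one that does not mark the strand. Per the submitters' processing notes, CASAVA 1.8.2, STAR, DESeq2 and mm9 were used, with no roles given. The sources used here do not name the counting tool. The coordinates are those of GRCm38: 34490 of the 35275 identifiers are in GENCODE M21, 24912 with the same position.

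FPKM times gene length gave whole reads for 100% of values (tolerance 0.01 reads). These reads entered limma voom with TMM scaling as an alternative. No count model was fitted. Groups were compared with limma 3.58.1 (lmFit, eBayes with a trend) in R 4.3.3 on log2(FPKM + 1), two-sided, without covariates. Genes entered if their mean was at least 1 FPKM, with Benjamini-Hochberg adjustment over all of them and a threshold of 0.05. A log2 difference on this scale understates the change of low genes. For genes below that level, mean FPKM was compared with an exact permutation test, two-sided. The procedure was tested on simulated data. Other pseudocounts, filters, scalings, a replicate block and leaving out libraries were tried.

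Members, gene lists and tests were chosen with earlier results of these data known. Named genes are the 7 members, 5 related genes, the genes of the cluster, the signal transducers of smallest p, the most abundant markers and the nearest profiles. The text marks the genes that fall outside this rule. Some genes of the lists are not reported here. Sh2d1b1 was not found in the table. In total 17 marker and pathway lists were used. The marker lists whose medians are not given above had these, by the labels and by the table of means: B cell identity 0.028 and 0.11, marginal zone -0.094 and 0.22, B1 cell -0.045 and -0.089, plasma cell -0.26 and -0.67, T cell -0.055 and 0.15, neutrophil 0.12 and -1.55, dendritic cell -0.21 and 0.54, platelet -0.11 and 0.27, erythroid -0.27 and 0.61.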

Additional observations from a re-analysis of the deposited data

How the results depend on the processing

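No member or related gene that entered limma was called under any alternative run. Sh2d1a, Slamf8 and Sh2d1b2 were compared by the permutation test only, without an adjusted p, so they could not be called. Of 303 values of single genes under alternatives 263 kept their direction. By the labels, the difference of Ly9 turned to -0.021 under median-of-ratios scaling, -0.021 with voom and -0.014 without immunoglobulin genes, that of Slamf9 to -0.0018 under median-of-ratios scaling, and that of Sh2d1b2 to 0.046 as a difference of mean log2(FPKM + 0.1). By the table of means, Slamf6 turned to -0.023, -0.025 and -0.020 and Ly9 to -0.014, -0.016 and -0.011 under median-of-ratios scaling, voom and without immunoglobulin genes. With CD40LΔ5 replicate 2 and WT replicate 1 left out, Ly9 turned to -0.11 and Slamf7 to 0.039, and the count of called genes by the table was 0. That count was 5 with a pseudocount of 0.1 FPKM, 1 with no filter on low values, and 1 to 16 when 1 library was left out, against 3 with all libraries. It was 16 without CD40LΔ5 replicate 1, 13 without WT replicate 2 and 1 without CD40LΔ5 replicate 2. The cause of these changes was not tested.

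Leaving out 1 library at a time gave, by the labels, log2 differences of 0.022 to 0.11 for Cd48, 0.040 to 0.14 for Slamf6, -0.074 to 0.15 for Slamf1, -0.023 to 0.18 for Cd84, -0.060 to 0.089 for Ly9, -0.081 to 0.20 for Cd244, -0.33 to 0.20 for Slamf7 and -0.23 to 0.15 for Slamf9. By the table of means it gave -0.014 to 0.086 for Slamf6, -0.040 to 0.11 for Ly9 and -0.19 to 0.14 for Cd2. The difference in mean FPKM ran from -0.038 to 0.028 for Sh2d1a and from -0.30 to 0.18 for Sh2d1b2 by the labels, and from -0.030 to 0.037 for Sh2d1a by the table.

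With the replicate number as a block (replicate block), 0 genes were called by the labels. The numbers did not pair the libraries: the deviations of same-numbered libraries correlated at -0.385, 0.0578 and 0.376, and not every library correlated best with its own number. Depth limits Sh2d1a and Slamf8, with at most 28 and 37 reads per library.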
